A study of Mus musculus with 24 samples.

Results

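The mitochondrial respiratory chain genes were read here as the nuclear genes whose symbols start with Ndufa, Ndufb, Ndufc, Ndufs, Ndufv, Sdh (Sdha to Sdhd), Uqcr, Cox4 to Cox8 or Atp5, without the Ndufaf assembly factors. A probe set counted as a member when the array annotation gave it to 1 gene only. These rules gave 169 probe sets of 82 genes, out of 45101 probe sets on the array and 18193 genes with a probe set of their own. Complex I had 36 genes on 78 probe sets, complex II 4 genes on 9, complex III 8 genes on 16, complex IV 17 genes on 35 and ATP synthase 17 genes on 31. Complexes were assigned by the first letters of the symbol alone. Ndufa4 and Ndufa4l2 were thus counted with complex I and Cox7a2l with complex IV, whatever the place of their proteins. A further 10 probe sets shared between a member and another gene were left outside.

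The respiratory chain passes electrons from NADH (through complex I) and succinate (through complex II) to ubiquinone, on to cytochrome c through complex III and finally to oxygen at complex IV. Complexes I, III and IV pump protons across the inner mitochondrial membrane, and ATP synthase uses the return flow to make ATP. Most subunits are encoded in the nucleus, and in B cells the chain supports the growth and secretion that follow activation. Resting follicular B cells, short-lived transitional cells and marginal zone cells of the spleen differ in how readily they are activated.

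RNA was measured in splenic B cell subsets of 7-week-old female NOD mice (NOD/ShiLtJ) and female B6 mice (C57BL/6/J). NOD is the strain in which autoimmune diabetes arises spontaneously, and B6 is its common non-diabetic comparison strain. No mouse carried a transgene or received a treatment according to the labels. Cells of 8 mice were pooled for each strain and experiment, T cells and CD11b+ cells were depleted, and 6 subsets were sorted by IgM, CD21/35, CD24, B220, CD93 and CD23. The labels call them T1, T2FO, T2MZ, T3, MZ and FO, and in common use T stands for transitional, FO for follicular and MZ for marginal zone B cells. This gave 12 groups of 2 arrays, 24 arrays in all from 4 pools of mice.

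The deposited values are log2 values that were centred on the median of each probe set over the 24 arrays. They therefore show how arrays differ in 1 probe set and carry no expression level, no signal over background and no order between genes. All values below are such centred log2 values, and a difference of 1 is a doubling of signal. Fewer cells of a type in a sort and less RNA per cell cannot be told apart in such pooled samples.

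Features of the whole set of arrays touch every comparison. The B6 arrays divided by the control probe sets at the 5' and 3' ends of beta-actin mRNA, a measure of how far labelling reached from the poly(A) tail. In 6 B6 arrays the 5' minus 3' value was -3.94 to -3.09, in the other 6 it was -1.11 to 0.423, and in the 12 NOD arrays it was -0.676 to 0.633. Each B6 subset held 1 array of the lower class (replicate 2 of T1, T2FO, T3 and T2MZ and replicate 1 of FO and MZ) and 1 of the higher class. Within the higher class the FO and MZ arrays were at 0.408 and 0.423, and the T1, T2FO, T3 and T2MZ arrays at -1.11 to -0.586. A class therefore does not even out the 5' signal between subsets. The NOD subset labels ran against transcripts of the sort markers, though not for every marker and label. Cd93, a marker of transitional cells, was at -1.89 ± 0.00376 on NOD arrays labelled T1 and -0.416 ± 0.0946 on NOD arrays labelled FO, against 3.05 ± 0.19 on B6 T1 and 0.00214 ± 0.0225 on B6 FO arrays (SD, n = 2 each, probe set 1419589_at). Fcer2a, which encodes CD23, went with the T1 and FO labels. It was -2.98 and 0.00189 on NOD arrays so labelled, against -1.56 and 0.226 in B6 (group means, probe set 1422122_at). On arrays labelled MZ it was 0.18 in NOD, against -2.525 in B6. NOD groups are therefore called by their label, and a difference between strains within a label may compare unlike cells. The sort was run in 2 independent experiments, and the labels do not say that the replicate number marks the experiment. The test over all subsets takes the same number within a strain as the same pool of mice, which the values did not bear out in B6, where FO and MZ arrays deviated opposite to the same-numbered arrays of the other subsets. Its p-values measure the spread between 2 means per strain formed by that number.

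The promoters of 5 genes on which the results below turn are shown, from 250 bases before to 50 bases after the start of the RefSeq gene in assembly GRCm38.p6. All 5 lie on the minus strand and are written 5' to 3'. Uqcrh lies on chromosome 4 at 116075021 to 116075320, Uqcr10 on chromosome 11 at 4704295 to 4704594, Uqcrfs1 on chromosome 13 at 30545267 to 30545566, Ndufa6 on chromosome 15 at 82354242 to 82354541 and Atp5c1 on chromosome 2 at 10080383 to 10080682. Capitals mark matches to 4 motifs searched on both strands. They were the core of the NRF1 site, the ETS site CCGGAAGT, the YY1 site AAGATGGCG and the estrogen-related receptor site AAGGTCA.
Uqcrh: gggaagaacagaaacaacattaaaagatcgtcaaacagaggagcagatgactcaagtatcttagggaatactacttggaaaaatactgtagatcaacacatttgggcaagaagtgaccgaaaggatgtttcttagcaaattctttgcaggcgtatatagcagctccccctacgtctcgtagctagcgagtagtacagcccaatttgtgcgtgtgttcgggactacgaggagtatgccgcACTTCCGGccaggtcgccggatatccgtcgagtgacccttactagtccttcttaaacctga
Uqcr10: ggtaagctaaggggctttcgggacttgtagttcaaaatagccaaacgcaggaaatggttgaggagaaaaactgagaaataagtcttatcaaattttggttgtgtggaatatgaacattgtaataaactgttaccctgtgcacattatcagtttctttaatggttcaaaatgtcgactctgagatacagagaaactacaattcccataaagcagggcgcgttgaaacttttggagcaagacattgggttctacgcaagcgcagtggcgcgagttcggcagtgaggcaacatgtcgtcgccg
Uqcrfs1: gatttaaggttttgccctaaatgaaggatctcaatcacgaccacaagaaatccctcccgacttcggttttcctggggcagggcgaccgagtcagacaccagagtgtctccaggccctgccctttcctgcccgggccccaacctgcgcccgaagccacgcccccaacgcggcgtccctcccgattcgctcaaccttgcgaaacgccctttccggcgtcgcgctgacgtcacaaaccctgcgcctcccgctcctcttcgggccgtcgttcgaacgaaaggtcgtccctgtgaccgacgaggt
Ndufa6: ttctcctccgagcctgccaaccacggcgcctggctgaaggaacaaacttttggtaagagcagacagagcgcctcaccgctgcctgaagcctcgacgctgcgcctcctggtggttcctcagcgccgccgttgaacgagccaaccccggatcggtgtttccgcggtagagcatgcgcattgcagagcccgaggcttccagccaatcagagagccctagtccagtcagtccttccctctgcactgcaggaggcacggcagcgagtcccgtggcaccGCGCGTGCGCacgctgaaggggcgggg
Atp5c1: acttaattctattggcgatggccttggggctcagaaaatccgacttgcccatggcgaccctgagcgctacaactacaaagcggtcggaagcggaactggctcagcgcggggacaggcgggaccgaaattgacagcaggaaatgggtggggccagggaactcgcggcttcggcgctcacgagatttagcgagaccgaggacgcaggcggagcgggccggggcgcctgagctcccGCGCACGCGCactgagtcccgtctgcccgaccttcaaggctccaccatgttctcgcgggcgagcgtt

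Of the 82 genes, 67 had a promoter in the RefSeq table. The NRF1 core was in 15 of them (22.4%), against 5.19% of 27025 genes with a promoter. NRF1 is a transcription factor known for activating nuclear genes of mitochondrial proteins. The NRF1 palindrome, a special case of that core, was in 4 (5.97%, against 1.07%). The YY1 letters were in 6 (8.96%, against 1.64% of all genes), the receptor letters in 8 (11.9%, against 5.38%) and the ETS letters in 5 (7.46%, against 4.31%). Simple promoter elements were near the general share: GGGCGG was in 43.3% of the members and 38.2% of all genes, CCAAT in 41.8% and 41.1%, and TATAAA in 11.9% and 15.7%. The NRF1 core matches fell in 6 of 15 ATP synthase genes, 5 of 32 complex I genes, 2 of 3 complex II genes, 1 of 5 complex III genes and 1 of 12 complex IV genes. Of the promoters shown, Ndufa6 and Atp5c1 hold an NRF1 core and Uqcrh an ETS match, while Uqcr10 and Uqcrfs1 hold none of these letters in the window. A second promoter listed for Atp5c1, at 10080461 to 10080760, holds none of them either. A match is a description of the sequence and not a measured binding site.

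The member probe sets varied more between arrays than most. Their median standard deviation over the 24 arrays was 0.365, against 0.259 for all probe sets, and 132 of 169 were above the median of all probe sets in this respect. The 8 isoform genes known from heart, skeletal muscle, testis, lung or other restricted settings (Cox4i2, Cox6a2, Cox6b2, Cox7a1, Cox7b2, Cox8b, Cox8c and Ndufa4l2) had 10 probe sets with a median SD of 0.212, against 0.389 for the other members. In NOD minus B6 over subsets, these 10 probe sets lay between -0.17 and 0.12 with a median of -0.04 and none was called.

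Much of the variation followed the 5' class of the B6 arrays. On the lower-class arrays 141 of the 169 members (83.4%) were lower than on the higher-class arrays, against 59.3% of all probe sets. The median member difference was -0.359, against -0.056 for all probe sets, and 35 members (20.7%, against 2.77% of all probe sets) were more than 1 lower. By complex the median difference was -0.718 for ATP synthase, -0.47 for complex II, -0.366 for complex I, -0.358 for complex III and -0.189 for complex IV. Atp5g2, a gene for the c subunit of the rotor of ATP synthase, had the lowest difference at -2.37 (probe set 1415980_at). It lay between -2.63 and -1.95 on the 6 lower-class arrays and between -0.70 and 0.55 on the 6 higher-class arrays, while NOD arrays lay between -0.05 and 0.72. Atp5d, the delta subunit, differed by -1.96 (1423716_s_at) and Cox6a1, a liver-type subunit of complex IV, by -1.87 (1417418_s_at). A few members moved the other way, with Cox7c at 1.83 (1459885_s_at) and Ndufs4 at 1.40 (1459760_at). No other property of the 2 classes is recorded in the labels, and the part of RNA quality in the member values was not tested.

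**Figure D1:**
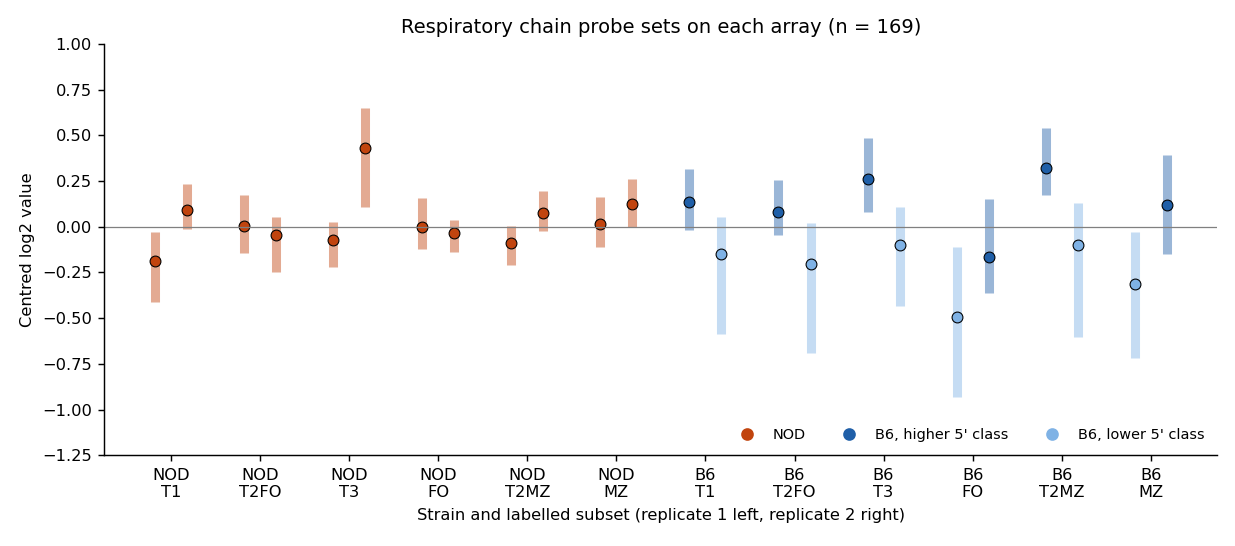
Median (point) and interquartile range (bar) of the 169 member probe sets on each of the 24 arrays, in centred log2 units, for the 6 NOD groups on the left and the 6 B6 groups on the right. In each B6 group the array of the lower 5' class sits below its partner, and B6 FO has the lowest median of its class in both classes.

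The plot of member medians by array shows this pattern. The median of the 169 members was -0.19 and 0.09 on NOD arrays labelled T1, 0.00202 and -0.04 on T2FO, -0.07 and 0.43 on T3, 0.00133 and -0.03 on FO, -0.09 and 0.08 on T2MZ and 0.01 and 0.13 on MZ, replicate 1 before replicate 2. On B6 arrays it was 0.13 and -0.15 for T1, 0.08 and -0.20 for T2FO, 0.26 and -0.10 for T3, -0.49 and -0.16 for FO, 0.32 and -0.10 for T2MZ and -0.31 and 0.12 for MZ. The ranges of the strains overlapped. The NOD array labelled T3, replicate 2, had the highest median of all 24, with 144 of 169 members above their own median, and B6 FO replicate 1 had the lowest, with 30 of 169 above.

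Comparing NOD with B6 over all subsets, 2 members were called at an adjusted p under 0.05 (limma on 4 means by strain and replicate number, Benjamini-Hochberg over 45037 probe sets), 1 higher and 1 lower in NOD. This is 1.18% of the members, against 3.02% of all probe sets called in the same fit. Both belong to complex III: Uqcrh was higher and Uqcr10 was lower. The count of members called was 19 without the B6 arrays of replicate 1, where 7.62% of all probe sets were called, and 4 without those of replicate 2, where 5.79% were. Without the NOD arrays of either number, limma called 0 members and 0 of all 45037 probe sets, while 5120 (without replicate 1) and 5762 (without replicate 2) of all probe sets had an unadjusted p under 0.05. A further 38 members had an unadjusted p under 0.05, 40 in all. The median difference of the 169 members was 0.06, against -0.03 for all probe sets, the quartiles were -0.09 and 0.31, and 101 were positive and 68 negative. The median was 0.31 for ATP synthase, 0.18 for complex III, 0.05 for complex I, -0.01 for complex IV and -0.05 for complex II. Of the 49 genes with several probe sets, 31 had probe sets of opposite sign, so the sign of a gene often hung on which probe set was read.

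**Figure D2:**
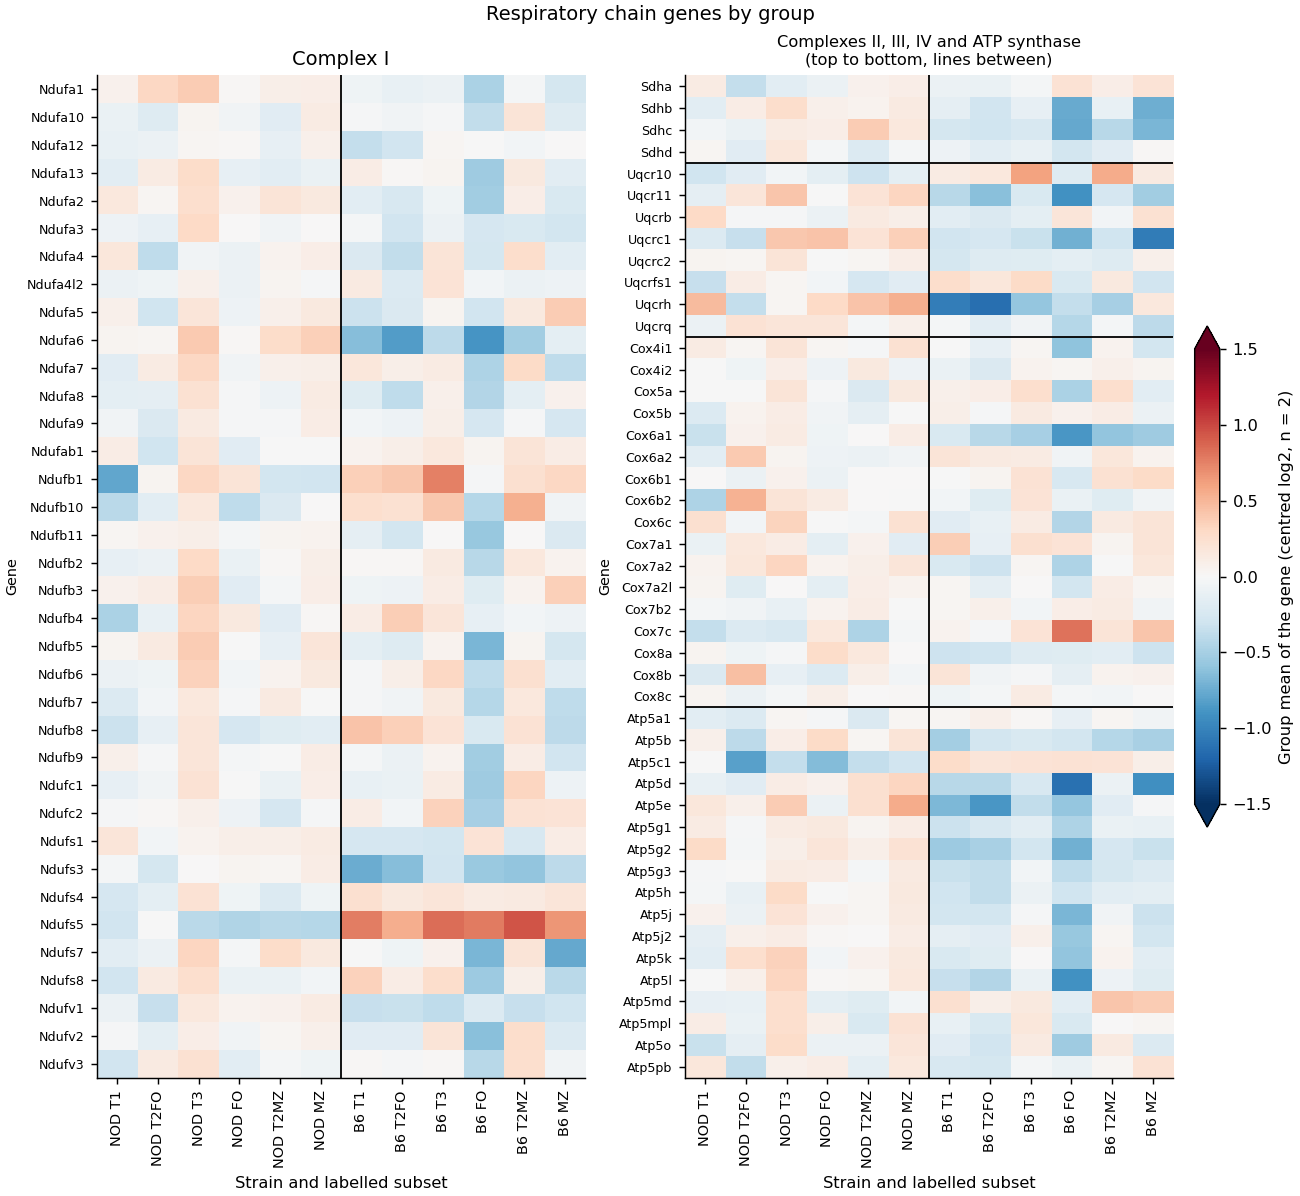
Group means (n = 2 arrays) of the 82 genes, each the mean of its probe sets in centred log2 units, with the 6 NOD groups left of the line and the 6 B6 groups right of it. Most genes are blue (below 0) in B6 FO. Ndufa6 is blue in all 6 B6 groups and Uqcrh in all but B6 MZ, and Ndufs5 is red (above 0) in all 6 B6 groups.

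Uqcr10 encodes a small membrane-anchored subunit of complex III. On probe set 1434340_at the NOD values were -0.44 and -0.26 (labelled T1), -0.73 and -0.33 (T2FO), -0.41 and -0.32 (T3), -0.56 and -0.61 (FO), -0.64 and -0.37 (T2MZ) and -0.72 and -0.45 (MZ). The B6 values were 1.05 and 0.37 (T1), 1.03 and 0.36 (T2FO), 1.30 and 1.12 (T3), 0.30 and 0.26 (FO), 1.65 and 0.92 (T2MZ) and 0.48 and 0.39 (MZ). Every NOD array was below every B6 array, and within B6 the FO and MZ arrays were the lowest of the higher class. Uqcr10 1434340_at was the single member whose strains did not overlap, while 2.4% of all probe sets had strains that did not overlap in 1 direction or the other. NOD was lower by 1.26 ± 0.17 (log2 difference -1.26 ± 0.17 SE, adjusted p = 0.0453). The other Uqcr10 probe sets did not share this: 1424364_a_at differed by 0.28 (adjusted p = 0.586) and 1434341_x_at by -0.26 (adjusted p = 0.512), and on both the strains overlapped. Against the 6 higher-class B6 arrays alone the difference of 1434340_at was -1.44 and against the 6 lower-class arrays alone -1.08. The difference was -1.16 without the NOD arrays of replicate 1 (adjusted p = 0.28) and -1.35 without those of replicate 2 (adjusted p = 0.212), fits in which no probe set of the array was called.

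Uqcrh encodes the hinge protein of complex III, an acidic subunit beside cytochrome c1. On probe set 1453229_s_at the NOD values were 0.62 and 0.72 (labelled T1), -0.59 and -0.34 (T2FO), 0.00304 and -0.00304 (T3), 0.59 and 0.19 (FO), 0.55 and 0.60 (T2MZ) and 0.63 and 0.80 (MZ). The B6 values were -0.62 and -1.71 (T1), -0.73 and -1.92 (T2FO), -0.25 and -1.09 (T3), -1.01 and 0.35 (FO), 0.18 and -1.19 (T2MZ) and -0.55 and 1.10 (MZ). The strains overlapped, and B6 MZ replicate 2 was the highest array of all. NOD was higher by 0.93 ± 0.12 (adjusted p = 0.0415), and the other Uqcrh probe set, 1452133_at, differed by 0.69 ± 0.12 (adjusted p = 0.0675). The size of this difference followed the B6 class: it was 0.31 (adjusted p = 0.0197) against the higher-class arrays and 1.56 (adjusted p = 9.45e-07) against the lower-class arrays. Both class fits held 1 B6 array per subset and took their spread from the NOD replicates alone. They treated arrays that share pools of mice as independent samples, and they called 26.4% and 32.5% of all probe sets. Their p-values therefore do not compare with the adjusted p of 0.0415 from means by replicate number. In the fits without the NOD arrays of replicate 1 and of replicate 2, the difference was 0.947 (adjusted p = 0.269) and 0.918 (adjusted p = 0.238). The suffix _s marks a probe set that can bind transcripts of more than 1 gene.

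**Figure D3:**
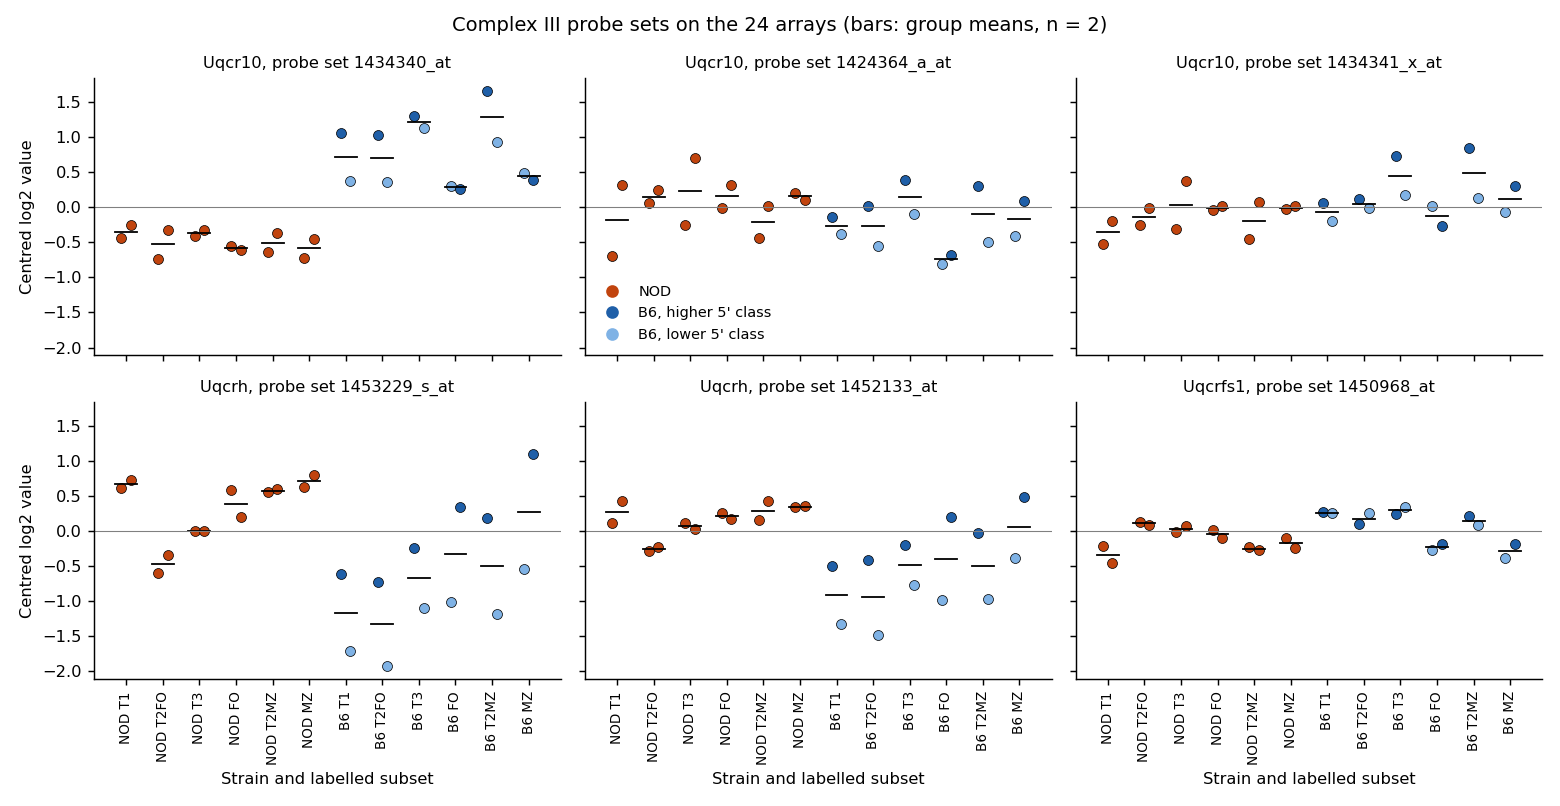
Centred log2 values of 6 complex III probe sets on the 24 arrays, with NOD groups left and B6 groups right, points for arrays and bars for group means (n = 2). On Uqcr10 1434340_at every NOD point lies below every B6 point, on the other Uqcr10 probe sets the strains overlap, and on Uqcrh the lower-class B6 arrays lie below their higher-class partners.

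No member of complexes I, II, IV or ATP synthase was called over subsets, and the values of the member with the smallest p in each are given instead. Ndufa6, an accessory subunit of complex I, lay between -0.16 and 0.75 on NOD arrays (median 0.16), against -1.60 to 0.70 on B6 arrays (median -0.60), a difference of 0.75 ± 0.11 (adjusted p = 0.0527, probe set 1448427_at). The strains overlapped through the higher-class B6 arrays, against which the difference was 0.17. When the probe sets of a gene were averaged before the fit, 2 of 82 member genes were called (2.44%), against 2.38% of all genes. They were Uqcrh (0.81, adjusted p = 0.0455) and Ndufa6 (0.75, adjusted p = 0.0456), by limma. Ndufa6 has 1 member probe set, so nothing was averaged for it. Its adjusted p changed because 18193 genes were fitted and adjusted in place of all probe sets. In the same setting the other comparisons called 2 member genes in T1 (7.07% of all genes called), 1 in T2FO (2.12%), 0 in T3 (1.34%), 1 in FO (2.81%), 0 in T2MZ (2.4%), 0 in MZ (2.55%), 0 for the interaction (2.48%), 1 in the B6 F test (2.28%), 0 in the NOD F test (2.79%), 0 for B6 MZ minus FO (1.14%), 0 for NOD MZ minus FO (0.253%), 1 for B6 FO minus T1 (1.63%) and 0 for NOD FO minus T1 (1.84%), by limma.

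Sdhc, a membrane anchor of succinate dehydrogenase, lay between -0.27 and 0.66 on NOD arrays and between -1.88 and 0.21 on B6 arrays, a difference of 0.96 ± 0.26 (adjusted p = 0.154, 1448630_a_at). The second Sdhc probe set differed by 0.15. Sdha, the flavoprotein subunit with the succinate site, had 4 probe sets between -0.21 and -0.05, and Sdhb, the iron-sulfur subunit, differed by 0.44. Cox5b, a matrix-facing subunit of complex IV, lay between -0.70 and 0.15 on NOD arrays and -0.17 and 1.32 on B6 arrays, a difference of -0.79 ± 0.14 (adjusted p = 0.0679, 1436149_at). Its 5 other probe sets lay between -0.17 and 0.24. Atp5c1, the central stalk (gamma) subunit of ATP synthase, lay between -1.60 and 0.23 on NOD arrays and -0.10 and 0.75 on B6 arrays, a difference of -1.02 ± 0.19 (adjusted p = 0.0743, 1438809_at), and its second probe set, 1416058_s_at, differed by -0.19. The strains overlapped on each of these.

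Ndufs5, a small accessory subunit of complex I, had the largest downward difference after Uqcr10 and was picked out after its values were seen. Its values were -0.16 and -0.41 on NOD arrays labelled T1, -0.40 and 0.40 on T2FO, -0.36 and -0.46 on T3, -0.45 and -0.46 on FO, -0.46 and -0.36 on T2MZ and -0.54 and -0.32 on MZ. B6 values were 1.36 and 0.17 for T1, 1.21 and -0.12 for T2FO, 1.56 and 0.12 for T3, 0.40 and 1.17 for FO, 1.72 and 0.16 for T2MZ and 0.18 and 1.14 for MZ. The NOD array labelled T2FO, replicate 2, was the single NOD array above 0, and B6 T2FO replicate 2 the single B6 array below 0. B6 values followed the 5' class: lower-class arrays lay between -0.12 and 0.40 and higher-class arrays between 1.14 and 1.72. The size of the strain difference thus hung on the class. The difference was -1.09 ± 0.23 and did not pass the adjustment (adjusted p = 0.0978, 1416494_at). A probe set shared between Ndufs5 and its pseudogene Ndufs5-ps, 1416495_s_at, differed by 0.41 in the other direction (adjusted p = 0.237).

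How many members were called depended on which B6 arrays stood for the strain. Against the 6 higher-class arrays alone, with arrays taken as independent samples, 37 members were called, 8 higher and 29 lower in NOD, with a median difference of -0.13. In that fit 26.4% of all probe sets were called, against 21.9% of the members. Against the 6 lower-class arrays alone 89 members were called, 73 higher and 16 lower, with a median of 0.22. There 32.5% of all probe sets were called, against 52.7% of the members. Both fits share the same NOD arrays. Each class holds 1 B6 array per subset, so the p-values of both fits hold the spread between NOD replicates and none between B6 replicates. With all 24 arrays as independent samples 28 members were called, 15 higher and 13 lower (16.6%, against 19.8% of all probe sets). Taking the replicate number as a random block gave 9 called members, where 12.5% of the array was called. A covariate for the 5' control gave 44, where 26.6% of the array was called. ATP synthase moved most, with a median of -0.09 against the higher-class arrays and 0.63 against the lower-class arrays, while complex IV stayed at -0.05 and 0.05. Within subsets the members called against the higher-class arrays were 11 in T1 (6.51%, against 12.1% of all probe sets), 5 in T2FO (2.96%, against 6.62%), 2 in T3 (1.18%, against 5.72%), 4 in FO (2.37%, against 5.11%), 4 in T2MZ (2.37%, against 6.63%) and 7 in MZ (4.14%, against 6.89%). Against the lower-class arrays they were 23 in T1 (13.6%, against 10.4%), 19 in T2FO (11.2%, against 8.42%), 14 in T3 (8.28%, against 5.68%), 38 in FO (22.5%, against 10.5%), 25 in T2MZ (14.8%, against 10.4%) and 28 in MZ (16.6%, against 8.17%). Atp5c1 1438809_at changed little between the classes (-1.02 and -1.02). Uqcr10 1434340_at was lower in NOD against both classes, by less against the lower-class arrays, as given above. Ndufa10 1448934_at differed by 0.54 against the higher-class arrays and 0.38 against the lower-class arrays, both called. Atp5g2 1415980_at, by contrast, differed by 2.55 against the lower-class arrays and by 0.19 against the higher-class arrays.

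**Figure D4:**
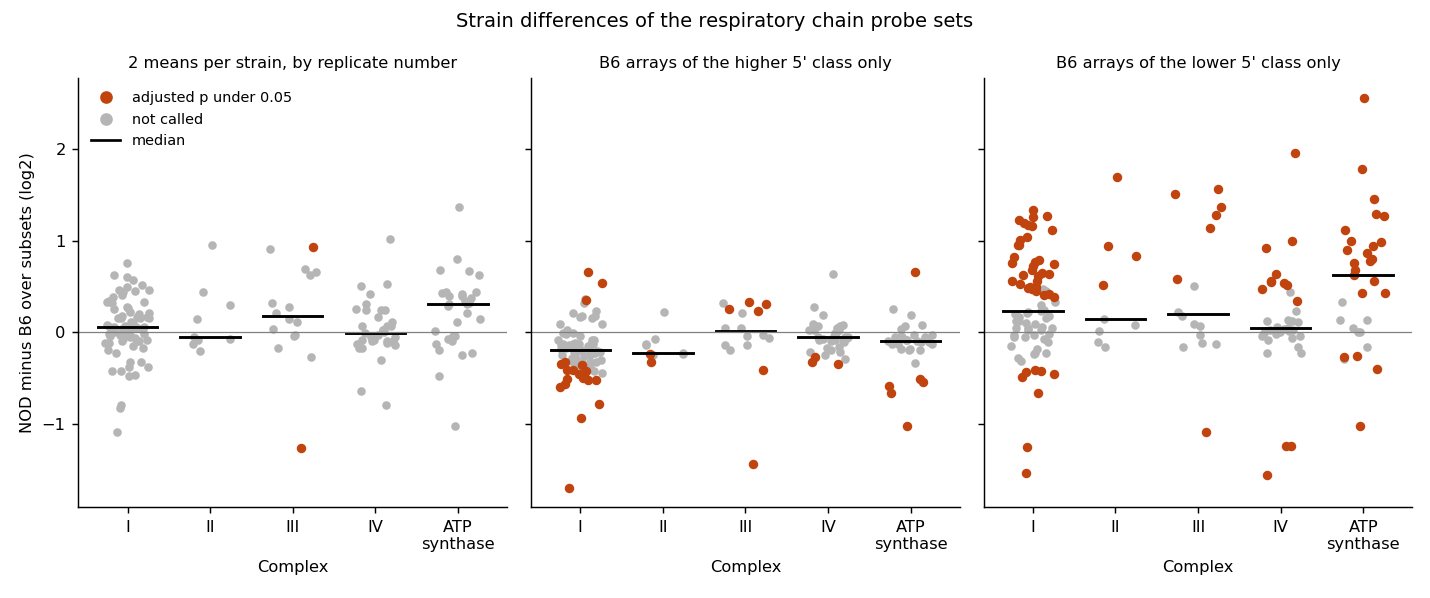
NOD minus B6 over subsets (log2) for the 169 member probe sets by complex, from 2 means per strain by replicate number (left), against the 6 B6 arrays of the higher 5' class (middle) and against the 6 of the lower 5' class (right). Red points were called and black lines are medians. The called points number 2 on the left, lie mostly below 0 in the middle and mostly above 0 on the right.

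Within subsets, the comparison of NOD with B6 called few members. On arrays labelled T1, 5 of 169 were called (2.96%, against 6.31% of all probe sets), 2 higher and 3 lower in NOD, and the median difference of all members was -0.00410. Uqcrb, a subunit of complex III that faces the matrix, was 0.50 and 0.54 in NOD, against -0.36 and -0.19 in B6 (0.80 ± 0.17, adjusted p = 0.0114, 1416337_at). The second Uqcrb probe set differed by 0.12. Uqcrfs1, the Rieske iron-sulfur protein of complex III, was -0.22 and -0.46 in NOD, against 0.27 and 0.26 in B6 (-0.60 ± 0.12, adjusted p = 0.00644, 1450968_at). Atp5g2 1456128_at was 0.94 and 0.78 in NOD, against -0.67 and -0.26 in B6 (1.32 ± 0.30, adjusted p = 0.0137). Ndufb8, an accessory subunit of complex I, was -0.44 and -0.24 in NOD, against 0.61 and 0.74 in B6 (-1.01 ± 0.26, adjusted p = 0.0316, 1458404_at). The other probe sets of Atp5g2 (1415980_at and 1447714_x_at) and Ndufb8 (1448198_a_at) were not called in T1. With 1 value per gene, 2 member genes were called in T1, 1 higher and 1 lower. Uqcr10 1434340_at was also lower (-1.06 ± 0.27, adjusted p = 0.0272). On each of these 5 called probe sets the 2 NOD and 2 B6 arrays did not overlap. With so few arrays this adds nothing to the calls, and the share of all probe sets without overlap in T1 was not counted. In the same comparison Cd93 differed by -4.94 and Cr2, which encodes CD21/35, by 2.92, so that markers of the sort itself moved with the label. Their part in the member values was not tested. The Uqcrb call in T1 was lost without NOD replicate 1 (0.818, adjusted p = 0.075), NOD replicate 2 (0.782, adjusted p = 0.0771) or B6 replicate 1 (0.714, adjusted p = 0.111). The Uqcr10 call in T1 was lost without NOD replicate 1 (-0.973, adjusted p = 0.198), NOD replicate 2 (-1.15, adjusted p = 0.0886) or B6 replicate 1 (-0.718, adjusted p = 0.283). The Uqcrfs1 call in T1 was lost without NOD replicate 2 (-0.482, adjusted p = 0.0936) or B6 replicate 1 (-0.599, adjusted p = 0.053). The Atp5g2 call in T1 was lost without NOD replicate 1 (1.24, adjusted p = 0.121), NOD replicate 2 (1.4, adjusted p = 0.0585) or B6 replicate 1 (1.11, adjusted p = 0.14). The Ndufb8 call in T1 was lost without NOD replicate 1 (-0.908, adjusted p = 0.23), NOD replicate 2 (-1.11, adjusted p = 0.0916), B6 replicate 1 (-1.08, adjusted p = 0.112) or B6 replicate 2 (-0.945, adjusted p = 0.147).

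On arrays labelled T2FO 3 members were called, all lower in NOD (1.78%, against 2.58% of all probe sets). Atp5c1 1438809_at was -1.60 and -1.48 in NOD, against 0.00357 and 0.51 in B6 (-1.80 ± 0.33, adjusted p = 0.0084). Ndufab1, the mitochondrial acyl carrier protein that is also a subunit of complex I, was -0.40 and -0.80 in NOD, against 0.45 and 0.07 in B6 (-0.86 ± 0.20, adjusted p = 0.0313, 1458678_at), and its 4 other probe sets lay between -0.63 and 0.16. Uqcr10 1434340_at differed by -1.23 ± 0.27 (adjusted p = 0.0237). Here 9 of 25 plasma cell probe sets, among them Prdm1 and Xbp1, were called higher in NOD, with a list median of 1.54. The part of plasma cell RNA in the member values was not tested, and the median of all members was 0.07. The median of the list was 0.517 and 0.946 on the NOD arrays, against -0.0705 and 0.0174 on the B6 arrays. The Uqcr10 call in T2FO was lost without NOD replicate 1 (-1.03, adjusted p = 0.109), NOD replicate 2 (-1.43, adjusted p = 0.0588) or B6 replicate 1 (-0.893, adjusted p = 0.193). The Atp5c1 call in T2FO was lost without NOD replicate 2 (-1.86, adjusted p = 0.0567) or B6 replicate 2 (-1.54, adjusted p = 0.094). The Ndufab1 call in T2FO was lost without NOD replicate 2 (-0.662, adjusted p = 0.337) or B6 replicate 1 (-0.67, adjusted p = 0.215).

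On arrays labelled T3 only Uqcr10 1434340_at was called (-1.58 ± 0.27, adjusted p = 0.00638, 0.592% of members, against 1.72% of all probe sets). The same holds on arrays labelled T2MZ (-1.79 ± 0.27, adjusted p = 0.00167, against 2.73% of all probe sets). On T2MZ 96 of the 169 members were negative, with a median of -0.08, and 7 of 36 proliferation probe sets were called lower in NOD, with a list median of -1.27. The median of that list was -0.451 and -0.381 on NOD arrays labelled T2MZ, against 0.366 and 0.599 on B6 T2MZ arrays. The part of dividing cells in the member values was not tested. The Uqcr10 call in T3 was lost without NOD replicate 1 (-1.54, adjusted p = 0.0741).

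On arrays labelled FO 2 members were called (1.18%, against 2.88% of all probe sets). Ndufa10, an accessory subunit of complex I, was 0.16 and 0.02 in NOD, against -0.68 and -0.78 in B6 (0.82 ± 0.17, adjusted p = 0.016, 1448934_at). Atp5c1 1438809_at was -1.16 and -1.19 in NOD, against 0.75 and 0.54 in B6 (-1.82 ± 0.33, adjusted p = 0.00727). The second probe sets of these genes differed by -0.20 and 0.08. FO had the largest member median of the 6 subsets, 0.27, against -0.01 for all probe sets, with 130 of 169 positive. In this comparison 10 of 21 myeloid probe sets (C1qa, C1qb, C1qc, Csf1r, Cd68, Adgre1 and Spic) were called higher in NOD with a list median of 2.41, and 2 of 36 proliferation probe sets (Cdk1 and Mki67) were called higher with a list median of 0.97. The median of the myeloid list was 2.34 and 1.52 on the NOD arrays, against -0.244 and 0.263 on the B6 arrays. The part of myeloid and dividing cells in the FO values was not tested. The Atp5c1 call in FO was lost without NOD replicate 1 (-1.83, adjusted p = 0.0536), NOD replicate 2 (-1.8, adjusted p = 0.0669) or B6 replicate 1 (-1.71, adjusted p = 0.0676). The Ndufa10 call in FO was lost without NOD replicate 1 (0.752, adjusted p = 0.13), NOD replicate 2 (0.895, adjusted p = 0.0755), B6 replicate 1 (0.873, adjusted p = 0.0711) or B6 replicate 2 (0.774, adjusted p = 0.099).

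On arrays labelled MZ 2 members were called (1.18%, against 2.52% of all probe sets). Ndufa10 1448934_at was 0.33 and 0.26 in NOD, against -0.28 and -0.68 in B6 (0.78 ± 0.17, adjusted p = 0.0235). Ndufb2, an accessory subunit of complex I, was -0.57 and -0.23 in NOD, against 0.46 and 0.21 in B6 (-0.74 ± 0.18, adjusted p = 0.0473, 1442658_at), while its other probe sets differed by 0.40 and 0.43. Uqcr10 1434340_at was not called there (-1.02 ± 0.27, adjusted p = 0.0599) nor in FO (-0.86 ± 0.27, adjusted p = 0.113). Of the 14 calls within subsets, 1 (Uqcr10 in T2MZ) was kept whichever array was left out, and 3 (Ndufb8 in T1, Ndufa10 in FO and Ndufb2 in MZ) were lost whichever was left out. Leaving out an array also lowered the count over the whole array, to between 230 and 1943 probe sets over the 6 subsets, against 774 to 2844 with all arrays, except in T2FO without NOD replicate 1 (1512, against 1162). The Ndufb2 call in MZ was lost without NOD replicate 1 (-0.565, adjusted p = 0.428), NOD replicate 2 (-0.906, adjusted p = 0.0825), B6 replicate 1 (-0.612, adjusted p = 0.221) or B6 replicate 2 (-0.859, adjusted p = 0.105). The Ndufa10 call in MZ was lost without NOD replicate 1 (0.743, adjusted p = 0.18), NOD replicate 2 (0.811, adjusted p = 0.122) or B6 replicate 2 (0.577, adjusted p = 0.243).

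Whether the strain difference varied between subsets was tested as an interaction. No member was called by limma, 6 had an unadjusted p under 0.05, and 1.35% of all probe sets were called. With the 5' class of the B6 arrays as a block, chosen after the data were seen, 2 members were called (1.18%, against 3.96%): Uqcrh 1453229_s_at (adjusted p = 0.0292) and Cox5a 1448153_at (adjusted p = 0.0435), a nuclear-encoded subunit of complex IV.

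Among the B6 subsets, an F test over the 6 groups called 1 member, Uqcrfs1 (adjusted p = 0.0437, 0.592% of members, against 1.41% of all probe sets). Its values were -0.26 and -0.19 in FO and -0.39 and -0.18 in MZ, against 0.27 and 0.26 in T1, 0.10 and 0.25 in T2FO, 0.25 and 0.34 in T3 and 0.21 and 0.08 in T2MZ. All 4 FO and MZ arrays were below all 8 others, in both 5' classes. In the higher class these FO and MZ arrays also had the highest 5' minus 3' values, so the classes do not even out that signal here. The call was lost without any 1 of the 12 B6 arrays, with adjusted p from 0.0539 to 0.119. On NOD arrays Uqcrfs1 was -0.22 and -0.46 (labelled T1), 0.13 and 0.09 (T2FO), -0.01 and 0.07 (T3), 0.01 and -0.10 (FO), -0.23 and -0.27 (T2MZ) and -0.11 and -0.23 (MZ).

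With the 5' class as a block the B6 F test called 9 members (5.33%, against 5.8% of all probe sets). They were Uqcrh on both probe sets, Uqcr10 1434340_at and Uqcrfs1 of complex III, Cox5a 1448153_at of complex IV, and Ndufa3, Ndufa12 1425919_at, Ndufb9 1436803_a_at and Ndufs8 1423907_a_at of complex I. Uqcrh 1453229_s_at had the smallest adjusted p of the 9, 0.000489. In NOD the F test called 0 members by limma, with 4 at an unadjusted p under 0.05, and 1.77% of all probe sets.

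B6 FO had the lowest median of the respiratory chain members among the B6 subsets. For B6 FO minus T1 the member median was -0.28, against -0.02 for all probe sets, and 128 members were negative and 41 positive. The median was -0.247 within the lower class and -0.281 within the higher class, and 106 members were negative in both. Each class value is 1 FO array minus 1 T1 array. The share of all probe sets that were negative, or negative in both classes, was not counted. The 5' minus 3' value was not even within a class: -3.19 on FO and -3.61 on T1 (lower), 0.408 and -0.613 (higher). Without the block limma called 0 members (23 with an unadjusted p under 0.05), against 1.01% of all probe sets. With the class as a block 10 were called, 8 lower and 2 higher in FO (5.92%, against 4.1%). The group means of the proliferation, large mitochondrial ribosome, carrier and glycolysis lists were also lowest in FO among the 6 B6 subsets. So were those of the assembly factor, citric acid cycle, plasma cell, T cell, NK cell, dendritic cell and erythroid and platelet lists. The biogenesis regulator, gate marker, B cell and myeloid lists were not lowest in FO. The median of the proliferation list was -0.672 and -0.239 on B6 FO arrays, against -0.0880 and 0.0920 on B6 T1 arrays, and 0 of its 36 probe sets were called by limma with or without the block. The large mitochondrial ribosome list was at -0.330 and -0.0136 on FO arrays, against 0.219 and -0.180 on T1 arrays, with 4 of 102 probe sets called lower with the block. The carrier and glycolysis lists averaged -0.149 and -0.123 in FO, against -0.0687 and -0.0377 in T1. The part of dividing cells in the FO values was not tested.

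**Figure D5:**
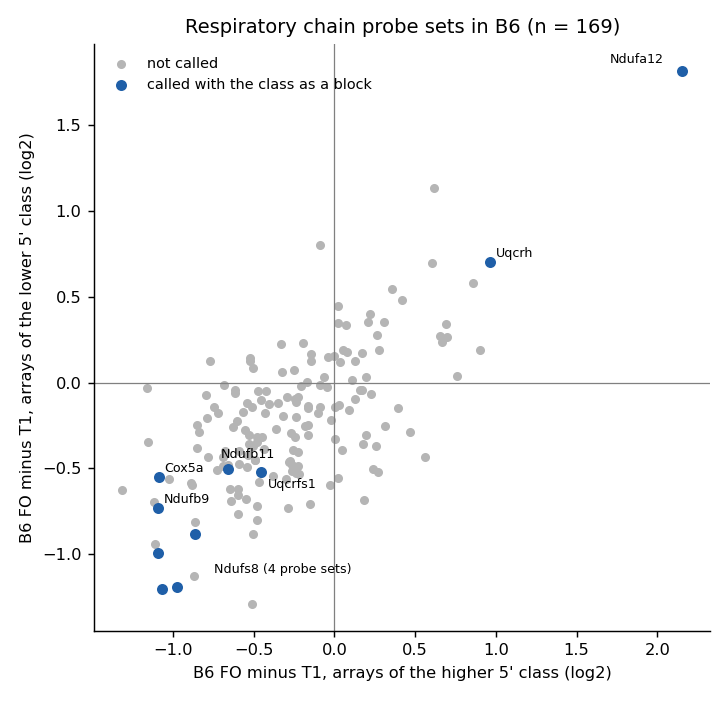
B6 FO minus T1 (log2) for the 169 member probe sets, from the arrays of the higher 5' class (x axis) and of the lower 5' class (y axis). Most points lie in the lower left, where FO is below T1 in both classes, with Ndufs8 among the lowest and Ndufa12 1425919_at furthest to the upper right. Blue points were called with the class as a block.

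Ndufs8, a core subunit of complex I that carries iron-sulfur clusters, led this group. Of its 6 probe sets 4 were called lower in FO with the block, by -1.14 ± 0.23 (1423907_a_at, adjusted p = 0.0106), -1.04 (1423908_at), -1.08 (1455283_x_at) and -0.87 (1434213_x_at). The others differed by -0.998 and -0.24. On 1423907_a_at FO was -1.18 (lower class) and -0.17 (higher class), against 0.02 and 0.89 in T1, and MZ was -1.01 and -0.11. FO and MZ lay below the other 4 subsets within each class.

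Cox5a 1448153_at was -0.89 and -0.72 in FO, against 0.37 and -0.33 in T1 (-0.82 ± 0.20, adjusted p = 0.029), and its other probe sets differed by -0.37 and -0.47. Ndufb9, an accessory subunit of complex I, was -0.61 and -1.11 in FO, against -0.02 and 0.13 in T1 (-0.91 ± 0.24, adjusted p = 0.0497, 1436803_a_at). Ndufb11 1455911_x_at, of another accessory subunit, differed by -0.58 ± 0.15 (adjusted p = 0.046) and Uqcrfs1 by -0.49 ± 0.13 (adjusted p = 0.0416). Both members called higher in FO were single probe sets of their genes. Ndufa12 1425919_at, of an accessory subunit added late in complex I assembly, was 1.59 and 0.67 in FO, against -1.48 and -0.23 in T1 (1.99 ± 0.38, adjusted p = 0.00853), while its 3 other probe sets lay between -0.44 and 0.12. Uqcrh 1453229_s_at was -1.01 and 0.35 in FO, against -0.62 and -1.71 in T1 (0.83 ± 0.18, adjusted p = 0.0154).

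For B6 MZ minus FO the member median was 0.20, against 0.00191 for all probe sets, with 123 positive and 46 negative. It was 0.151 within the lower class and 0.234 within the higher class, each from 1 MZ array minus 1 FO array. The share of all probe sets with each sign was not counted. The median of the proliferation list was 0.000212 and 0.378 on B6 MZ arrays, against -0.672 and -0.239 on B6 FO arrays. The myeloid list was at -0.109 and 1.24 on B6 MZ arrays, against -0.244 and 0.263 on B6 FO arrays, with MZ replicate 2 the highest of the 4. With the class as a block 1 of 36 proliferation and 1 of 21 myeloid probe sets were called higher in MZ, and the part of these cells in the member values was not tested. Limma called 0 members (8 with an unadjusted p under 0.05), against 0.564% of all probe sets. With the block 1 was called (0.592%, against 1.68%): Ndufc2, an accessory subunit of complex I, was 0.07 and 0.62 in MZ, against -1.07 and -0.57 in FO (1.16 ± 0.27, adjusted p = 0.0444, 1416366_at). Its 3 other probe sets differed by 0.11, 0.69 and 0.86. The FO and MZ arrays of B6 did not overlap on 1416366_at, which adds nothing to the call with so few arrays per group.

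In NOD, arrays labelled FO minus T1 had a member median of 0.04, against 0.01 for all probe sets, with 100 positive and 69 negative. Limma called 0 members (5 with an unadjusted p under 0.05), against 1.14% of all probe sets. Arrays labelled MZ minus FO had a median of 0.10, against 0.00968 for all probe sets, with 128 positive and 41 negative. Limma called 0 members and none had an unadjusted p under 0.05, against 0.122% of all probe sets called. In NOD FO minus T1, 7 of 21 myeloid probe sets were called higher in FO, and in NOD MZ minus FO, 5 were called lower in MZ. Given the gate transcripts above, these NOD contrasts are between labels.

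Genes around the chain were read from lists chosen with earlier results of these data known. In NOD minus B6 over subsets, 0 of 68 probe sets of assembly factors were called by limma, as were 0 higher and 1 lower (Mrpl15) of 102 of the large mitochondrial ribosome subunit. Of 46 probe sets for electron carriers and entry points 2 were called, both higher. They were Gpd2, the mitochondrial glycerol-3-phosphate dehydrogenase that feeds electrons to ubiquinone (1.17 ± 0.12, adjusted p = 0.0283, 1452741_s_at), and Nnt, the proton-driven transhydrogenase of the inner membrane (0.99 ± 0.13, adjusted p = 0.043, 1416105_at). C57BL/6J mice are known for a deletion within Nnt. Its other probe sets differed by 0.73 (adjusted p = 0.0681) and -0.13. Gpd2 did not move one way: on another probe set, 1428323_at, it was called lower in T1 (-0.72), T2FO (-0.83) and FO (-0.99).

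Of 39 probe sets of the citric acid cycle 3 were called, all lower in NOD. Suclg2, the GDP-forming succinyl-CoA synthetase subunit, had -1.87 ± 0.14 (adjusted p = 0.0178, 1435841_s_at) and -1.72 (1427441_a_at), and Pdhb, of pyruvate dehydrogenase, had -1.06 ± 0.10 (adjusted p = 0.0254). Suclg2 1435841_s_at was called lower in all 6 subsets, by 1.17 to 2.37 on the log2 scale. Of 47 probe sets of the glycolysis list 3 were called, all lower. Pdk1, the kinase that inhibits pyruvate dehydrogenase and not itself an enzyme of glycolysis, had -1.86 ± 0.11 (adjusted p = 0.0147) and -1.83. Pfkp, a phosphofructokinase, was the only glycolytic enzyme called (-0.91). Of 47 probe sets of biogenesis regulators 3 were called, all of Ppargc1a, the PGC-1alpha coactivator known for raising mitochondrial gene expression (-1.02 ± 0.09, adjusted p = 0.0226, -0.90 and -0.82). Nrf1, the factor of the core letters above, was called lower on 1 probe set on arrays labelled FO (-0.89 ± 0.20, adjusted p = 0.0266). The median differences of these lists over subsets were -0.07 for assembly factors, 0.04 for carriers, -0.05 for the citric acid cycle, -0.09 for biogenesis regulators, 0.01 for glycolysis and -0.03 for the ribosome, beside 0.06 for the respiratory chain members.

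Few marker probe sets of other cells were called over subsets. No probe set of the plasma cell (25), proliferation (36), T cell (15), NK cell (8), dendritic cell (14) or erythroid and platelet (9) lists was called by limma, 1 of 21 myeloid probe sets (Spic) and 1 of 14 B cell probe sets (Cd22) were called higher, and among 24 gate marker probe sets 2 were called higher and 2 lower. The changes within subsets are given with each subset above.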

How the data were processed

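RNA of 24 sorted B cell samples was measured on Affymetrix whole-genome mouse arrays after labelling in 2 cycles from oligo(dT) primers, per the labels' protocols. The deposited values are log2 values made by the authors with RMA, per the submitters' processing notes, and centred on each probe set's median (no median exceeded 5e-07 in size). The log base is taken as 2 because RMA gives base 2. Array number limits the precision: there were 2 arrays per group and 2 experiments per strain. No column outside the mapped samples was found.

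All differences come from limma (version 3.58.1, R version 4.3.3) on all 45037 non-control probe sets, with Benjamini-Hochberg adjustment, and a probe set was called at an adjusted p under 0.05. Plots used matplotlib (version 3.10.9, Python version 3.11.15). NOD minus B6 over subsets was fitted on 4 means by strain and replicate number (taken as the pool), and the other comparisons on 12 group means of 24 arrays. Those fits share 1 spread between strains, though the root mean square replicate SD was 0.448 in B6 and 0.261 in NOD. With only the arrays compared, B6 FO minus T1 called 0 of all probe sets (456 in the shared fit). The NOD F test then called 1447 of all (797 in the shared fit). In data simulated for NOD minus B6 over subsets with 200 changed probe sets of 45037, 0% were recovered at a log2 size of 1 and 93% at a size of 2. For NOD minus B6 in T1 the shares were 31.5% and 84.5%. The simulated noise was independent for each array, with no pool shared between arrays. The real fit over subsets called 1361 probe sets, some under 1 in size such as Mrpl15 (-0.81). The simulated shares therefore do not describe the real fits.

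All 82 member genes were found in RefSeq by gene number, and 15 lacked a promoter entry. Gene names come from the platform annotation. A filter on dim probe sets could not be made on centred values, so the probe sets of more than median SD were used as an alternative. Other alternatives were the unit of replication, a covariate and classes of 5' control signal (the classes chosen after the data were seen), normalization, 1 value per gene, the replicate number as a block and each replicate left out. The labels do not say that a replicate number marks a pool or experiment. Deviations of same-numbered arrays correlated at -0.62 to 0.873 in B6, with FO and MZ opposite to the other subsets, and at -0.0418 to 0.507 in NOD, so the numbers were not taken as pairs in the other fits.

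The members, lists and tests were chosen with earlier results of these data known. The genes named were called members (up to 12 in each direction over subsets and in F tests, up to 6 elsewhere), the member with the smallest p of a complex without a call, up to 3 called genes of each other list, Nnt and the sort markers.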

Additional observations from a re-analysis of the deposited data

Results flagged for a closer look

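Members whose strain difference varied between subsets in the interaction test with the 5' class as a block were Uqcrh 1453229_s_at (adjusted p = 0.0292) and Cox5a 1448153_at (adjusted p = 0.0435), by limma. Neither was called without the block.

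Other members moved in opposite directions in the 2 strains or in different subsets on every array of the groups named. None of these was called by the interaction test over all subsets, with adjusted p from 0.119 (Uqcrfs1) to 0.938 (Ndufb11) without the block and 0.0691 (Uqcrfs1) to 0.476 (Ndufb11) with it, and the difference between the single contrasts below was not tested on its own. With 2 arrays per group, agreement on every array is a weak filter, and the share of all probe sets passing it was not counted. For FO minus T1, Uqcrb 1416337_at was at -0.535 in NOD as labelled and 0.452 in B6. For the same contrast Uqcrfs1 1450968_at was at 0.297 in NOD and -0.489 in B6, Atp5c1 1438809_at at -1.23 in NOD and 0.309 in B6, and Ndufa3 1430149_at at 0.373 in NOD and -0.741 in B6. For MZ minus FO, Atp5c1 1438809_at was at 0.561 in NOD and -0.418 in B6.

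NOD minus B6 also changed sign between subsets. Uqcrfs1 1450968_at differed by -0.603 in T1, -0.265 in T3, -0.398 in T2MZ and 0.183 in FO. Ndufb9 1436803_a_at differed by 0.216 in T2FO, 0.744 in FO, 0.413 in MZ and -0.435 in T2MZ. Ndufs8 1455283_x_at differed by -0.851 in T1, 0.39 in FO and 0.357 in MZ, and Ndufb11 1455911_x_at by -0.0994 in T1, -0.216 in T2MZ and 0.399 in FO.

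Among probe sets outside the comparisons because they are shared between genes, 1452641_at of Yjefn3 and Ndufa13 was lower in NOD arrays labelled T1 (-0.774, limma adjusted p = 0.0421).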

How the results depend on the processing

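Counts of called members moved with the unit of replication and the 5' signal, as did those of the whole array. NOD minus B6 over subsets gave 9 with the replicate number as a random block (5628 of all 45037 probe sets), 28 with arrays as independent samples (8925 of all) and 44 with the 5' control as a covariate (11978 of all). It gave 0 after quantile normalization (1759 of all), 8 among the more variable probe sets (2769 of 22518) and 1 among those without a suffix (1096 of 36082). Against B6 arrays of higher 5' signal it gave 37, with 11 in T1, 5 in T2FO, 2 in T3, 4 in FO, 4 in T2MZ and 7 in MZ. Against those of lower 5' signal it gave 89, with 23 in T1, 19 in T2FO, 14 in T3, 38 in FO, 25 in T2MZ and 28 in MZ. The covariate gave 28 in T1 (8352 of all), 12 in T2FO (4302), 7 in T3 (3288), 7 in FO (3594), 11 in T2MZ (4067) and 7 in MZ (3080). It gave 2 for the interaction (1723 of all) and 12 and 2 for the B6 and NOD F tests (2989 and 1946). For B6 and NOD FO minus T1 it gave 12 and 1 (2272 and 1109 of all). The class block gave 2 for the interaction, 9 for the B6 F test, 1 for B6 MZ minus FO and 10 for B6 FO minus T1. With 1 value per gene there were 2 in T1, 1 in T2FO, 0 in T3, 1 in FO, 0 in T2MZ, 0 in MZ and 1 for B6 FO minus T1. With only the arrays compared there were 0 in each of the 6 subsets (9 to 702 of all) and 0 in the B6 F test (79 of all). There was 1 in the NOD F test (1447 of all) and 1 for NOD FO minus T1 (690 of all). This setting was not run for the interaction. The B6 F test gave 0 after quantile normalization (252 of all), after subtracting array medians (595) and among the more variable probe sets (552 of 22518). MZ gave 0 among the more variable probe sets (1070 of 22518). B6 FO minus T1 gave 1 with the random block (695 of all), and NOD FO minus T1 gave 1 after quantile normalization (630 of all).

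With the replicate number as a block, NOD minus B6 over subsets gave 0 (18 of all 45037 probe sets). The B6 F test gave 2 (1521 of all), the NOD F test 1 (1143), B6 FO minus T1 1 (1174) and NOD FO minus T1 1 (740). The labels do not tie a number to a pool, so these values are not read as a paired result.

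Leaving out 1 replicate gave 0 to 19 over subsets (0 to 3433 of all probe sets), 0 to 5 in T1, 0 to 3 in T2FO, 0 to 1 in T3, FO and MZ, 1 in T2MZ, 0 to 1 for the NOD F test and for B6 MZ minus FO, and 0 for the interaction, the B6 F test, NOD MZ minus FO and both FO minus T1 contrasts.

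Of 702 values of named members under alternatives, 537 kept direction and side of the threshold, 99 lost the call, 63 gained one and 3 changed sign. With the covariate Ndufa6 was at -0.0619 (adjusted p = 0.809) and Sdhc at -0.0633 (adjusted p = 0.824), and with 1 value per gene Ndufb2 in MZ was at 0.0326 (adjusted p = 0.985). The cause of these changes was not tested. Signal over background is not known for centred values.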

Other observations

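The 10 probe sets shared between a respiratory chain gene and another gene differed between NOD and B6 over subsets by -0.24 to 0.54 on the log2 scale, and limma called 0 of them. The largest value was that of 1429708_at, shared by Ndufa11b and Ndufa11 (adjusted p = 0.263).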
